A study of Mus musculus with 4 samples.

Results

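8 genes of the p53 pathway and of cell cycle arrest were followed across the cells of the mouse fracture callus: Trp53, Mdm2, Cdkn1a, Ccng1, Phlda3, Gdf15, Cdkn2a and Cdkn2b. They were chosen by gene symbol, and 8 of 8 were found among the 32285 genes of the files. Trp53 encodes p53, a transcription factor that is held low by the ubiquitin ligase Mdm2 and that accumulates after DNA damage and other stress. Its targets include Cdkn1a, which encodes the CDK inhibitor p21, and Mdm2 itself, which closes a feedback loop. Cdkn2a and Cdkn2b act on a neighbouring arm: p16Ink4a and p15Ink4b block CDK4 and CDK6 upstream of the Rb protein, and p19Arf, also made from Cdkn2a, blocks Mdm2. High levels of these inhibitors are used as marks of cells that have left the cycle, although none of them is by itself a mark of senescence.

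The callus came from fractured tibiae of wild-type C57BL/6J male mice, 3 months old. K/BxN serum, which brings on joint inflammation through autoantibodies, was given to RA mice by intraperitoneal injection on 0 and 3 days post-fracture (dpf) and then every 5 days, so that both time points had received the same injections. Control mice received vehicle. Callus was collected at 4 and 7 dpf, and calluses were pooled into each of the 4 single-cell libraries, 1 per condition and time point, with 3 or 4 calluses to a pool, since the sources differ on that number. At each time point RA and control were therefore compared without replicates and without a test, and the exact 95% intervals given with levels, shares and ratios cover counting error only, not the spread between animals.

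After filtering, 4110 to 8223 cells per library remained, with a median of 16094 to 17632 UMIs (unique molecules counted) per cell. Levels are given as CPM, the UMIs of a gene per 1000000 UMIs, over all cells of a type in a library. Clusters were built without the genes of interest and named from marker genes, and they were grouped into a mesenchymal lineage of 8523 cells, a myeloid lineage of 9700, an endothelial lineage of 3369 and 943 muscle cells. Pdgfra was at 277 CPM in the mesenchymal lineage and at most 4.5 CPM in the others. Cdh5 was at 994 CPM in the endothelial lineage and at most 3.50 CPM elsewhere, and Pax7 at 269 CPM in muscle cells and below 1 CPM elsewhere. Other mesenchymal markers were less exclusive. Prrx1 was at 576 CPM in the mesenchymal lineage and 152 CPM in muscle cells, and Col1a1 at 14345 and 318 CPM. Between 5 and 15 cell barcodes were shared by any 2 libraries, and 1 cluster of 134 cells, 44.8% of them called doublets, was left unnamed.

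In the mouse genome (GRCm38), Cdkn2a (chromosome 4, 89274471 to 89294653) and Cdkn2b (chromosome 4, 89306299 to 89311039) lie on the same strand, 11645 bases apart. The 2 coding transcripts of Cdkn2a start at different promoters and share their 3′ exons, so the 3′ counts used here do not separate p16Ink4a from p19Arf. Mdm2 is on chromosome 10, Ccng1 and Trp53 are on chromosome 11, Cdkn1a is on chromosome 17, Gdf15 on chromosome 8 and Phlda3 on chromosome 1.

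RefSeq promoter windows (GRCm38.p6, 250 bases before to 50 after a start) were found for 8 of 8 genes, 11 windows in all. They were searched for the p53 consensus site, 2 adjacent decamers with no spacer, which reads the same on both strands, with at most 1 mismatch. Such a site was present in 2 of the 11 windows, of Cdkn1a and Ccng1, and in 0.0883% of all 32851 windows. Both stretches are shown, with the site in capitals, because p53 is known to bind these sites.
Cdkn1a, chr17:29090878-29090978, + strand: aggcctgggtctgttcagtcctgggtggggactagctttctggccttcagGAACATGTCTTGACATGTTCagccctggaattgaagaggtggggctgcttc
Ccng1, chr11:40755412-40755531, − strand: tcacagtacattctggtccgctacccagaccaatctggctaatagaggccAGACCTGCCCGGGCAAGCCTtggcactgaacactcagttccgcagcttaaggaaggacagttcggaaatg
The Cdkn1a site starts 51 bases before the upstream start of that gene, and the Ccng1 site 195 bases before its start. The other windows hold no match within 1 mismatch, which says only that these letters are not in these 300 bases.

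Cdkn2a and Cdkn2b were detected mainly in muscle and mesenchymal cells and were close to absent from myeloid cells. Over the 4 libraries, Cdkn2a was highest in muscle cell-like cells, at 14 to 48.5 CPM, then in cycling mesenchymal cells (9.70 to 26.6 CPM) and mesenchymal progenitor-like cells (7.80 to 21.1 CPM), and these neighbours in the order overlapped. Fibroblast-like cells had 1.34 to 4.61 CPM. Cdkn2b was highest in mesenchymal progenitor-like cells, at 14.5 to 32.1 CPM, overlapping cycling mesenchymal cells at 12.9 to 36.8 CPM; osteochondral progenitor-like cells, which form cartilage and bone and had enough cells in 2 libraries only, came next and did not overlap with the cycling cells, at 7.86 to 10.7 CPM. Myeloid cells as a whole had 0.190 to 0.367 CPM of Cdkn2a and 0.279 to 0.680 CPM of Cdkn2b.

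By lineage, the share of cells with a UMI was also lowest in myeloid cells. After each cell was thinned to 4000 UMIs, Cdkn2a was seen in 1.04% to 4.28% of mesenchymal cells and in 2.24% to 11% of muscle cells, against 0.0456% to 0.152% of myeloid cells; Cdkn2b was seen in 3.30% to 7.40% of mesenchymal cells and at most 0.256% of myeloid cells. Without thinning the Cdkn2a shares were 6.88% to 19.1% of mesenchymal cells and 0.192% to 0.457% of myeloid cells, which had median depths of 24585 to 32631 and 10924 to 14728 UMIs. Free RNA was gauged from Col1a1, a collagen gene of mesenchymal cells, which was found in myeloid cells at 1.37% to 2.51% of its level over all cells of a library. At those shares free RNA would give at most 0.0444 to 0.235 CPM of Cdkn2a and 0.0667 to 0.327 CPM of Cdkn2b. In each library the myeloid level was above that maximum as a point value, without regard to counting error. In control 4 dpf, RA 4 dpf, control 7 dpf and RA 7 dpf, Cdkn2a was 0.261, 0.190, 0.367 and 0.209 CPM against 0.0855, 0.0444, 0.235 and 0.0805. Cdkn2b was 0.279, 0.299, 0.336 and 0.680 CPM against 0.0932, 0.0667, 0.327 and 0.153. In the same order of libraries these levels rest on 14, 7, 12 and 4 UMIs of Cdkn2a and 15, 11, 11 and 13 of Cdkn2b. So few UMIs cannot place a level above the maximum where the 2 are close, such as 0.336 against 0.327 CPM. The source of these few UMIs was not tested.

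The lineages were compared over the 4 libraries with edgeR's quasi-likelihood test, with the library as a block and Benjamini-Hochberg adjustment over 17331 genes. A call needed an adjusted p under 0.05 and a change of at least 1.5-fold. At that rule 61.6% of all genes were called between mesenchymal and myeloid cells, 48.0% between mesenchymal and endothelial cells and 56.2% between endothelial and myeloid cells, and the 8 genes gave 6, 5 and 7 calls. Against myeloid cells, Cdkn2a was higher in mesenchymal cells by 4.78 ± 0.29 on the log2 scale (SE, 4 libraries; adjusted p = 1.21e-07) and Cdkn2b by 5.10 ± 0.29 (adjusted p = 8.19e-08). Both were also higher in mesenchymal than in endothelial cells, by 2.44 ± 0.25 (adjusted p = 1.18e-05) and 1.84 ± 0.23 (adjusted p = 5.47e-05). Levels of Cdkn2a over the 4 libraries were 4.26 to 13.5 CPM in the mesenchymal lineage and 0.851 to 2.48 CPM in the endothelial lineage.

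**Figure D1:**
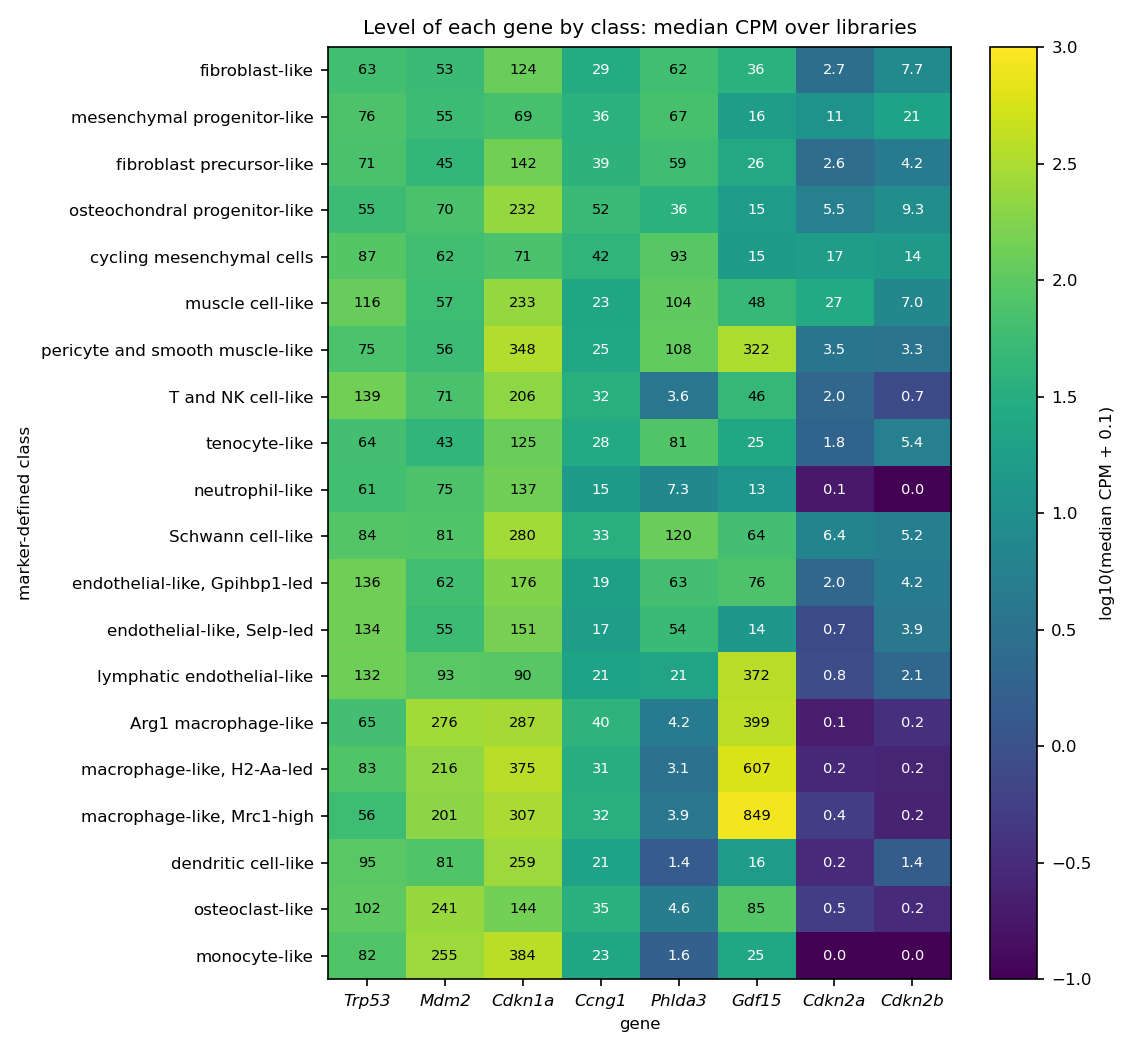
Level of the 8 genes (columns) in 20 marker-defined classes (rows), as the median CPM over libraries; the number in each cell is that median and the colour is log10(median CPM + 0.1). The Cdkn2a median is highest in muscle cells (27.4 CPM) and the Cdkn2b median in mesenchymal progenitor-like cells (20.8 CPM), both are at most 1.4 CPM in every myeloid class, and the Phlda3 median is at most 7.34 CPM in every blood-derived class.

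Trp53 and its brake Mdm2 had different patterns. Trp53 was the most even of the group, with class medians from 54.8 CPM in osteochondral progenitor-like cells to 139 CPM in T and NK cell-like cells. It was higher in the endothelial lineage (121 to 145 CPM) than in the mesenchymal lineage (68.0 to 74.4 CPM), and the log2 difference, mesenchymal minus endothelial, was −0.75 ± 0.07 (edgeR, adjusted p = 4.11e-06). The difference between mesenchymal and myeloid cells, −0.23 ± 0.07, was under 1.5-fold. Mdm2 stood out in myeloid cells instead: Arg1 macrophage-like, monocyte-like and osteoclast-like cells and both other macrophage classes had 182 to 360 CPM, and the next class in the order, lymphatic endothelial-like cells, at 53.4 to 126 CPM, did not overlap with them. Dendritic cell-like cells, also of the myeloid lineage, had only 64.1 to 95.3 CPM. Mdm2 was lower in mesenchymal than in myeloid cells, with a log2 difference of −2.25 ± 0.08 (edgeR, adjusted p = 4.37e-09) and did not pass the test between mesenchymal and endothelial cells (−0.06 ± 0.08).

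Among the targets of p53, Cdkn1a was highest in monocyte-like cells (319 to 399 CPM), macrophage-like cells led by H2-Aa (332 to 400 CPM) and pericyte and smooth muscle-like cells (329 to 416 CPM), 3 classes that overlapped. It was low in mesenchymal progenitor-like cells, at 56.6 to 74.9 CPM, and in cycling mesenchymal cells, at 43.3 to 118 CPM, which overlapped and which were also the 2 classes with the highest Cdkn2b. Between lineages it was lower in mesenchymal than in myeloid cells, with a log2 difference of −1.57 ± 0.08 (edgeR, adjusted p = 5.35e-08). Ccng1, which encodes cyclin G1, a regulator of Mdm2 through the phosphatase PP2A, had a narrow range: its class medians ran from 14.8 CPM in neutrophil-like cells to 52.4 CPM in osteochondral progenitor-like cells, the only class whose values stood above those of its neighbour. It was higher in mesenchymal than in endothelial cells, by 1.11 ± 0.10 (edgeR, adjusted p = 6.71e-06), and mesenchymal and myeloid cells differed by −0.06 ± 0.10.

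Phlda3, a target of p53 that restrains Akt signalling, split the callus into haematopoietic and other cells. Every myeloid class, the T and NK cells and the neutrophils were at or below 14.4 CPM in every library, and in the myeloid lineage its level was 3.32 to 4.04 CPM. It was 95.4 to 149 CPM in Schwann cell-like cells, 100.2 to 119 CPM in pericyte and smooth muscle-like cells and 89.3 to 124 CPM in muscle cells. Phlda3 was higher in mesenchymal than in myeloid cells by 4.04 ± 0.10 (edgeR, adjusted p = 5.43e-10) and higher in endothelial than in myeloid cells by 3.63 ± 0.10 (adjusted p = 1.20e-09). In lymphatic endothelial-like cells it was lower than in the other endothelial classes, at 11.6 to 37.0 CPM against 52.7 to 66.3 CPM.

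Gdf15 encodes a secreted factor of the TGF-β superfamily that is induced by p53 and by other stress pathways. Gdf15 had its highest class medians in the macrophage classes. Mrc1-high macrophage-like cells had 688 CPM in control and 573 CPM in RA callus at 4 dpf, and 1305 and 1010 CPM at 7 dpf. Arg1 macrophage-like cells, at 224 to 594 CPM, overlapped pericyte and smooth muscle-like cells and lymphatic endothelial-like cells. Other myeloid classes were low, with 11.5 to 48.7 CPM in monocyte-like and 9.32 to 61.7 CPM in dendritic cell-like cells. Pericyte and smooth muscle-like cells were steady, at 302 to 336 CPM in the 4 libraries. Lymphatic endothelial-like cells were not: they had 1382, 112, 246 and 498 CPM in control 4 dpf, RA 4 dpf, control 7 dpf and RA 7 dpf, from 31, 34, 96 and 147 cells. Gdf15 was lower in mesenchymal than in myeloid cells, with a log2 difference of −4.10 ± 0.31 (edgeR, adjusted p = 7.52e-07) and lower in endothelial than in myeloid cells, with −2.63 ± 0.29 (adjusted p = 1.81e-05).

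Genes with a similar pattern were found by Pearson's r of log2(CPM + 1) over 78 sums of a class in a library. These sums share libraries and classes, so r is given as a description. Phlda3 was matched most closely by Mxra7 (r = 0.969), Lncppara (0.954) and Lzts2 (0.953), and Mdm2 by Fnip2 (0.932), Usf2 (0.922) and 2310022A10Rik (0.907). For Cdkn2b close matches were Slc1a4 (0.838) and Scfd1 (0.832), for Trp53 Dhx9 (0.813) and Thoc1 (0.802), and for Cdkn2a Gm49890 (0.797), Tln2 (0.797) and H1fx (0.793). Cdkn1a was closest to Rb1 (0.782), which encodes the Rb protein, then Adap2 (0.758) and Adap2os (0.748); Gdf15 to Acp2 (0.786), Rragc (0.775) and Gna12 (0.769); and Ccng1 to Clptm1l (0.741), Tmem120a (0.737) and Bag1 (0.735). Within the group, Phlda3 had r = 0.758 with Cdkn2b and −0.740 with Mdm2, Cdkn2a had 0.720 with Cdkn2b, and Cdkn2b had −0.646 with Mdm2 and −0.609 with Cdkn1a.

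The change with serum arthritis was read as the ratio of RA to control CPM at the same time point, and a gene was counted where the ratio was at least 1.5-fold in either direction and 50 or more UMIs were counted over both libraries. In mesenchymal cells 11.3% of all genes passed that mark at 4 dpf and 17.7% at 7 dpf. Of the 8 genes, 1 passed at 4 dpf, Cdkn2a, and 2 passed at 7 dpf, Cdkn2a and Cdkn2b. Cdkn2a was 5.0 CPM in control and 8.43 CPM in RA mesenchymal cells at 4 dpf, a ratio of 1.69 (1.35 to 2.12). At 7 dpf it was 13.5 CPM in control and 4.26 CPM in RA cells, a ratio of 0.316 (0.282 to 0.355). Between the time points it was thus 2.70 times higher in control callus (2.26 to 3.24) and 0.506 times as high in RA callus (0.425 to 0.604). A shift shared by both time points was tested with edgeR over the 4 libraries, condition with day as a covariate, which leaves 1 residual degree of freedom; this test was added after the ratios had been seen. It called 0 of 18271 genes in mesenchymal, 0 of 15328 in myeloid and 0 of 15260 in endothelial cells, with 617, 481 and 1842 at an unadjusted p under 0.05. Of the 8 genes 2 were among these, in endothelial cells: Cdkn2a (−1.36 ± 0.36 on the log2 scale; edgeR, adjusted p = 0.354) and Cdkn2b (−0.86 ± 0.28; adjusted p = 0.382).

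Cdkn2b moved the same way with smaller ratios. It was 10.9 CPM in control and 14.1 CPM in RA mesenchymal cells at 4 dpf, a ratio of 1.3 (1.10 to 1.52), and 21.0 and 9.04 CPM at 7 dpf, a ratio of 0.430 (0.396 to 0.467). The control 7 dpf library was the highest of the 4 for both genes and the RA 7 dpf library the lowest. The share of thinned mesenchymal cells with a Cdkn2b UMI was 7.40% (6.50% to 8.38%) in control and 3.52% (2.96% to 4.15%) in RA callus at 7 dpf, and that with a Cdkn2a UMI was 4.28% (3.59% to 5.06%) and 1.04% (0.745% to 1.42%). In counts summed over a lineage, fewer positive cells and less RNA per positive cell cannot be told apart.

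**Figure D2:**
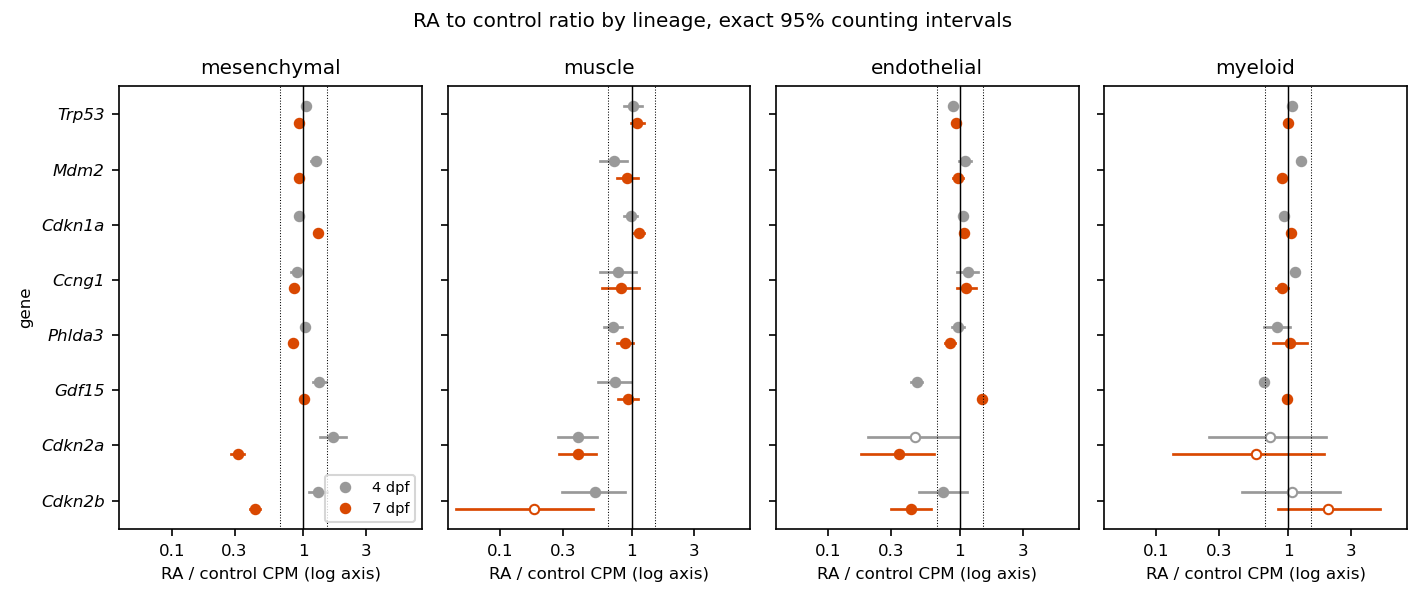
RA to control ratio of CPM (log axis) for the 8 genes (rows) in 4 lineages (panels) at 4 dpf (grey) and 7 dpf (orange), with exact 95% counting intervals as lines; open points rest on fewer than 50 UMIs, the solid line marks 1 and the dotted lines 1.5-fold. Cdkn2a and Cdkn2b at 7 dpf lie left of the lower dotted line in mesenchymal, muscle and endothelial cells (0.180 to 0.430), while Trp53 stays between 0.893 and 1.11 in all 4 panels.

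The lower level at 7 dpf was present in most classes with enough counts. Cdkn2a was measured at 50 or more UMIs in 6 named classes at 7 dpf, mesenchymal ones and muscle cells, and was lower in RA callus in 6 of 6, with ratios of 0.313 to 0.640. In mesenchymal progenitor-like cells it was 21.1 CPM in control and 7.80 CPM in RA callus (0.370, 0.319 to 0.427), in fibroblast-like cells 4.61 and 1.44 CPM (0.313, 0.221 to 0.438), and in cycling mesenchymal cells 26.6 and 15.2 CPM (0.574, 0.375 to 0.856). The interval for osteochondral progenitor-like cells, 0.339 to 1.15, held 1. Cdkn2b was lower in 5 of 6 classes, which include Gpihbp1-led endothelial cells (0.541, 0.337 to 0.854), with the interval below 1 in 5; in mesenchymal progenitor-like cells it was 32.1 CPM in control and 14.5 CPM in RA callus (0.452, 0.406 to 0.504). The exception was again the osteochondral progenitor-like class, with a ratio of 1.37 (0.886 to 2.09). At 4 dpf Cdkn2a reached 50 UMIs in 2 classes only, muscle cells (0.391) and mesenchymal progenitor-like cells (1.18, 0.896 to 1.54, an interval that held 1). No measured mesenchymal class thus repeated the lineage ratio of 1.69. Cdkn2b at 4 dpf was lower in RA callus in 3 of 4 measured classes, with 0.926 (0.762 to 1.12) in mesenchymal progenitor-like cells. Muscle cells were among the 3 and had the only interval below 1 (0.527, 0.296 to 0.891). With the classes weighted equally the mesenchymal log2 ratios at 4 dpf were 0.78 for Cdkn2a and 0.26 for Cdkn2b, instead of 0.65 and 0.35. Fibroblast-like cells were the exception, with 3.50 CPM of Cdkn2b in control and 10.1 CPM in RA callus (2.87, 1.90 to 4.43).

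Other values moved with these. Cycling cells, defined by at least 3 UMIs of 14 proliferation genes after thinning, made up 11% of control and 14.6% of RA mesenchymal cells at 4 dpf, and 10.2% and 3.59% at 7 dpf. They are a wider set than the class named cycling mesenchymal cells. That class is a cluster with 140 control and 68 RA cells at 7 dpf, when 313 and 138 mesenchymal cells reached the 3-UMI mark. Among the mesenchymal cells below that mark, Cdkn2a was 12.8 CPM in control and 4.03 CPM in RA callus at 7 dpf (0.316, 0.279 to 0.356) and Cdkn2b was 20.1 and 8.89 CPM (0.443, 0.406 to 0.483). The part of the cell cycle in the ratios was not tested. Mesenchymal progenitor-like cells numbered 1294 of 3083 control and 1183 of 3839 RA mesenchymal cells at 7 dpf. With each class given equal weight, the log2 ratio of Cdkn2a at 7 dpf was −0.98 instead of −1.46 and that of Cdkn2b −0.74 instead of −1.13.

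**Figure D3:**
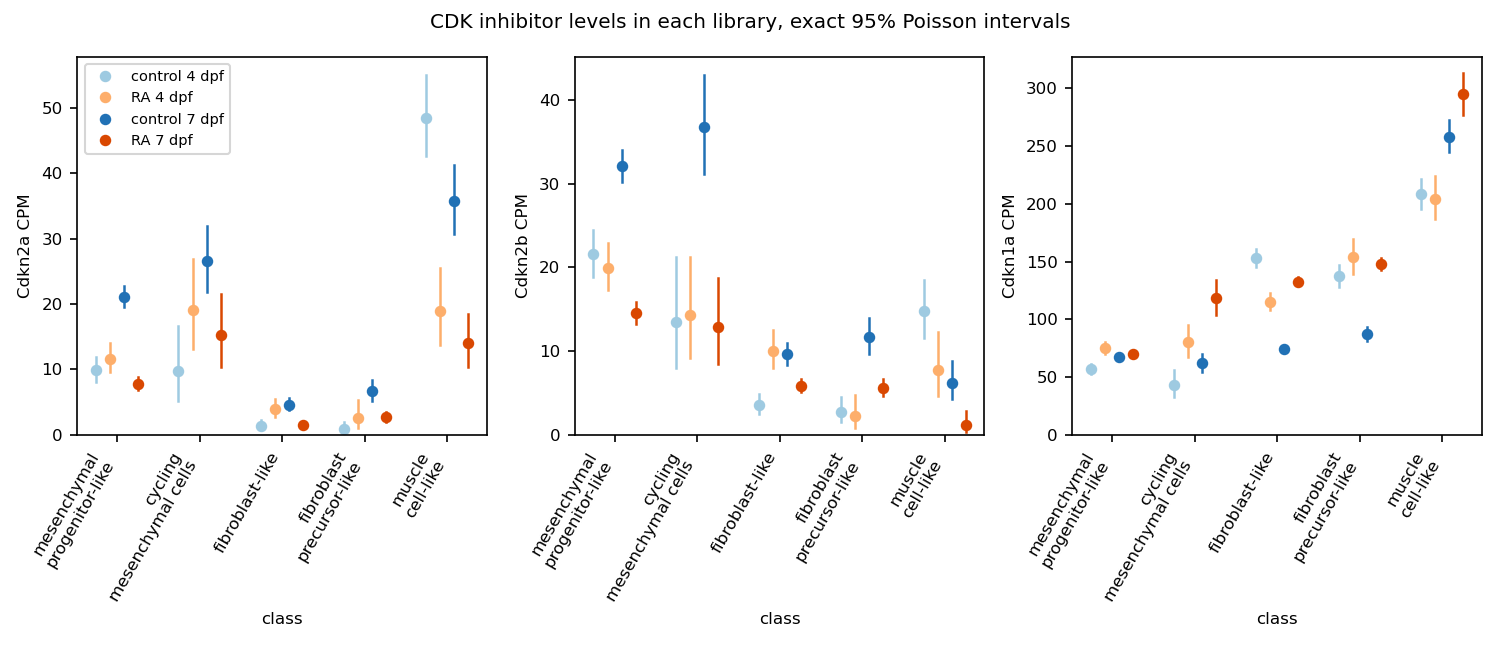
CPM of Cdkn2a, Cdkn2b and Cdkn1a (panels, linear axes from 0) in 4 mesenchymal classes and in muscle cells, 1 point per library with its exact 95% Poisson interval. In mesenchymal progenitor-like cells the control 7 dpf point is the highest for Cdkn2a (21.1 CPM) and Cdkn2b (32.1 CPM) and the RA 7 dpf point the lowest, whereas in fibroblast-like cells Cdkn1a at 7 dpf is higher in RA (133 CPM) than in control (74.2 CPM).

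Cdkn1a had other directions than Cdkn2a and Cdkn2b. In mesenchymal cells it was 106 CPM in control and 99.1 CPM in RA callus at 4 dpf, and 90.1 and 117 CPM at 7 dpf, a ratio of 1.29 (1.26 to 1.33), under the 1.5-fold mark. At 4 dpf the log2 ratio was −0.10, and 0.26 with the classes weighted equally. By class, Cdkn1a passed 1.5-fold at 7 dpf in fibroblast-like cells (74.2 CPM in control, 133 CPM in RA; ratio 1.79, 1.69 to 1.89), fibroblast precursor-like cells (87.1 and 148 CPM; 1.70, 1.57 to 1.83), tenocyte-like cells (75.5 and 128 CPM; 1.70, 1.46 to 1.98) and the class of cycling mesenchymal cells (61.9 and 118 CPM; 1.91, 1.6 to 2.28). Over the 20 named classes measured at 7 dpf, it was higher in RA callus in 12 and lower in 8. The interval lay above 1 in 10 classes and below 1 in 4, and 0 classes passed 1.5-fold lower. The share of all genes past that mark was counted by lineage and not by class. At 4 dpf fibroblast-like cells were the other way, at 153 CPM in control and 115 CPM in RA callus, and the class of cycling mesenchymal cells was again higher in RA callus (43.3 and 79.9 CPM; 1.85, 1.35 to 2.56). Among all mesenchymal cells that were cycling by the UMI definition, the Cdkn1a ratio was 1.36 (1.13 to 1.65) at 4 dpf. At 7 dpf it was 1.43 (1.27 to 1.62) in those cells, and both ratios were under the 1.5-fold mark. A list of 10 immediate-early and heat-shock genes that respond to tissue dissociation was also higher in RA mesenchymal cells, at a summed 2827 CPM in control and 3915 CPM in RA callus at 4 dpf and 2356 and 3325 CPM at 7 dpf. Of the 10 genes, 3 and 2 were past 1.5-fold, where 11.3% and 17.7% of all genes passed. The part of these 10 genes in the Cdkn1a levels was not tested.

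The other 5 genes were under 1.5-fold in mesenchymal cells at both time points. Trp53 was 68.0 and 70.9 CPM in control and RA callus at 4 dpf and 74.4 and 68.4 CPM at 7 dpf. Mdm2 had a ratio of 1.24 (1.14 to 1.34) at 4 dpf and 0.926 (0.890 to 0.964) at 7 dpf; its log2 ratio at 7 dpf was −0.11, and 0.03 with the classes weighted equally. Phlda3 was at 1.04 (0.966 to 1.11) and 0.829 (0.800 to 0.859), and Ccng1 at 0.889 (0.806 to 0.979) and 0.847 (0.806 to 0.891). Gdf15 was at 1.32 (1.18 to 1.49) at 4 dpf and 1.02 (0.960 to 1.08) at 7 dpf; its log2 ratio at 4 dpf was 0.39, and 0.05 without cycling cells, and at 7 dpf it was 0.02, and −0.44 with the classes weighted equally.

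Muscle cells, of which 81.3% to 99.1% had a UMI of the satellite cell gene Pax7, were added as a further lineage after their levels had been seen. There 19.9% of all genes passed 1.5-fold at 4 dpf and 22.0% at 7 dpf. Cdkn2a was 48.5 CPM in control and 19 CPM in RA muscle cells at 4 dpf and 35.7 and 14 CPM at 7 dpf, with ratios of 0.391 (0.277 to 0.542) and 0.392 (0.281 to 0.538). In the test of condition with day as a covariate, 6.92% of all genes and 1 of the 8 were called in muscle cells: Cdkn2a, with a log2 difference, RA minus control, of −1.39 ± 0.19 (edgeR, adjusted p = 0.00364). Here too the test left 1 residual degree of freedom and was added after the ratios had been seen. Cdkn2b was 14.8 and 7.77 CPM at 4 dpf, a ratio of 0.527 (0.296 to 0.891); at 7 dpf it rested on 32 control and 4 RA UMIs. Among cells with a Pax7 UMI and none of Myog, a gene of committed myoblasts, Cdkn2a was 53.4 and 14.5 CPM at 4 dpf and 38.7 and 15.1 CPM at 7 dpf. Cycling cells made up 24.5% of control and 13.8% of RA muscle cells at 4 dpf and 23.5% and 7.03% at 7 dpf, and without them the log2 ratio of Cdkn2a was −1.64 and −1.15. Muscle cells differed in depth, with medians of 24639 UMIs in control and 18232 in RA at 4 dpf and 14491 and 9763 at 7 dpf, and 5 and 7 of the 10 dissociation genes were higher in RA muscle cells past 1.5-fold. The part of either in these ratios was not tested.

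Cdkn1a in muscle cells was 208 and 205 CPM in control and RA callus at 4 dpf and 258 and 295 CPM at 7 dpf. It was higher in cells with a Myog UMI, at 450 CPM in control 4 dpf, 465 CPM in control 7 dpf and 410 CPM in RA 7 dpf, than in cells with Pax7 and no Myog, at 130, 186 and 254 CPM. In cells with Pax7 and no Myog, Cdkn1a was 159 CPM in RA 4 dpf. The RA to control ratio in these cells was 1.23 (1.06 to 1.42) at 4 dpf and 1.37 (1.22 to 1.53) at 7 dpf, both under the 1.5-fold mark. In cells with a Myog UMI it was 0.883 (0.776 to 1.00) at 7 dpf. Cells with a Myog UMI made up 19.6% of control and 10.3% of RA muscle cells at 4 dpf. The part of this in the muscle levels was not tested. Cdkn1c, which encodes the related inhibitor p57, was 975 to 1503 CPM over the 4 libraries in muscle cells, against at most 322 CPM in mesenchymal cells.

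In endothelial cells 7.06% of all genes passed 1.5-fold at 4 dpf and 11% at 7 dpf. Of the 8 genes 7 were measured at 4 dpf and 1 passed, Gdf15; 8 were measured at 7 dpf and 2 passed, Cdkn2a and Cdkn2b. Cdkn2a was 2.48 CPM in control and 0.851 CPM in RA cells at 7 dpf, from 36 and 16 UMIs (ratio 0.343, 0.178 to 0.635), and Cdkn2b was 6.47 and 2.77 CPM from 94 and 52 UMIs (0.427, 0.298 to 0.606). Gdf15 was 110 and 51.5 CPM at 4 dpf (0.469, 0.425 to 0.517) and 67.6 and 99.4 CPM at 7 dpf (1.47, 1.36 to 1.59). The Gpihbp1-led and Selp-led classes were lower in RA callus at 4 dpf (0.688, 0.614 to 0.770; 0.542, 0.336 to 0.851). The Gpihbp1-led ratio was under the 1.5-fold mark. The lymphatic class, with 31 control and 34 RA cells at 4 dpf and 96 and 147 at 7 dpf, had the directions of the lineage. Its ratios were further from 1, at 0.0807 (0.0623 to 0.103) and 2.03 (1.79 to 2.30), and its part in the lineage ratios was not tested. With the classes weighted equally the log2 ratios were −1.65 at 4 dpf and 0.59 at 7 dpf, instead of −1.08 and 0.55.

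In myeloid cells 8.40% of all genes passed at 4 dpf and 12.1% at 7 dpf, and of the 6 genes measured 1 passed at 4 dpf, Gdf15, and 0 at 7 dpf. Gdf15 was 329 CPM in control and 216.5 CPM in RA myeloid cells at 4 dpf, a ratio of 0.659 (0.642 to 0.677); among the cells that were not cycling it was 0.673 (0.654 to 0.692), just inside the 1.5-fold mark. At 7 dpf it was 601 and 591 CPM, higher than at 4 dpf by 1.83 times in control (1.79 to 1.87) and 2.73 times in RA callus (2.65 to 2.81). The near-equal levels at 7 dpf were those of the pooled myeloid cells. Giving each myeloid class equal weight moved the log2 value of Gdf15 from −0.03 to −0.46 at 7 dpf, still under the 1.5-fold mark. At 4 dpf it moved from −0.60 to −0.67. Over the named classes with enough counts, Gdf15 ratios ran from 0.0807 to 3.57 at 4 dpf and from 0.114 to 2.47 at 7 dpf, and it was lower in RA callus in 13 of 19 classes at 4 dpf and in 13 of 20 at 7 dpf. In T and NK cell-like cells, where the level was low, it was 89.1 and 11.1 CPM at 4 dpf and 81.7 and 9.28 CPM at 7 dpf, from 92, 21, 104 and 22 UMIs.

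**Figure D4:**
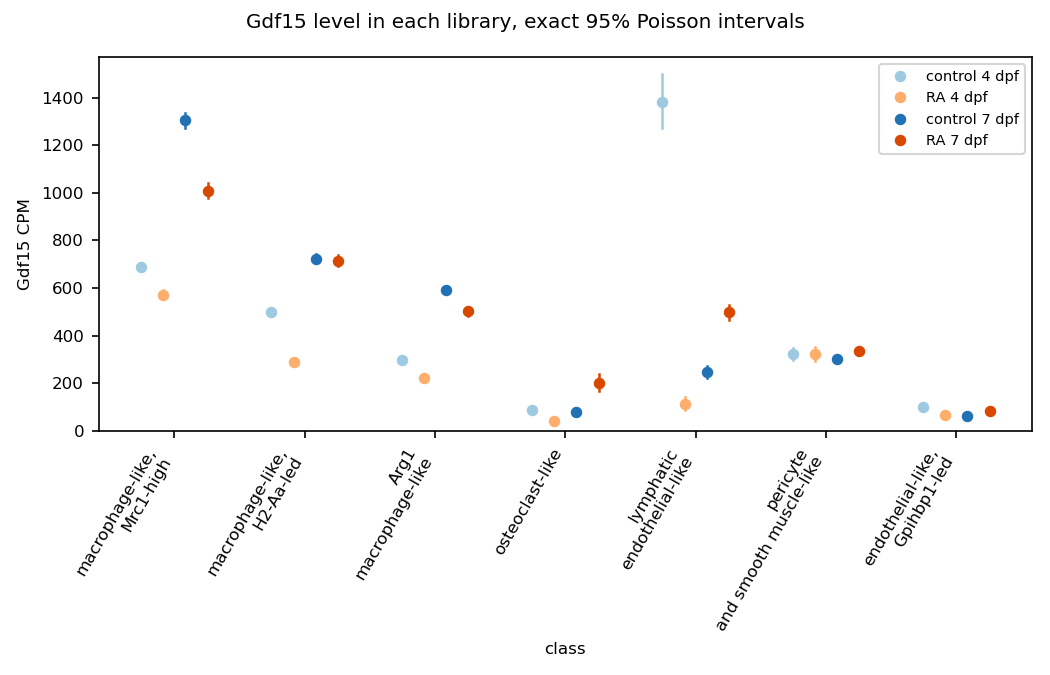
Gdf15 CPM (linear axis from 0) in 7 classes, 1 point per library with its exact 95% Poisson interval. Macrophage classes are higher at 7 than at 4 dpf in both conditions, pericyte and smooth muscle-like cells stay between 302 and 336 CPM, and lymphatic endothelial-like cells range from 112 to 1382 CPM.

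Mdm2 in myeloid cells was 224 CPM in control and 279 CPM in RA callus at 4 dpf (ratio 1.25, 1.22 to 1.28) and 234 and 212 CPM at 7 dpf (0.906, 0.872 to 0.941). Trp53 had ratios of 1.07 and 0.997, and Cdkn1a of 0.927 and 1.05. Cdkn2a and Cdkn2b were counted in 4 to 15 UMIs per library there, too few for a ratio.

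Cells that were cycling by the UMI definition and other cells of the same library were also compared. This used edgeR's quasi-likelihood test over the 4 libraries, with the library as a block. At an adjusted p under 0.05 and 1.5-fold, 16.3% of all genes were called in mesenchymal cells, 13% in myeloid cells and 15.6% in endothelial cells, and all 14 proliferation genes, which define the cells, were higher in each. Of the genes studied here 2 of 8, 1 of 6 and 2 of 8 were called. Cdkn2a was higher in cycling mesenchymal cells by 1.2 ± 0.21 on the log2 scale (adjusted p = 0.00273), at 9.74 to 19.4 CPM against 3.78 to 12.8 CPM in other cells, and higher in 4 of 4 libraries. In endothelial cells Cdkn2a was higher by 1.69 ± 0.35 (edgeR, adjusted p = 0.00234), again in 4 of 4 libraries, at 1.67 to 4.93 CPM against 0.601 to 1.77 CPM. This rests on few counts. In control 4 dpf, RA 4 dpf, control 7 dpf and RA 7 dpf there were 17, 5, 16 and 3 UMIs in cycling endothelial cells. The other endothelial cells had 13, 5, 20 and 13. Cdkn2b was higher in cycling mesenchymal cells by 0.62 ± 0.14 (edgeR, adjusted p = 0.00864), just past 1.5-fold. It was below that mark without the control 4 dpf library (0.47), with no low-count filter (0.57) and with cycling cells defined by at least 5 UMIs (0.54). Mesenchymal classes differed in cycling share and in Cdkn2a. Of fibroblast-like cells 1.05% to 2.54% were cycling, with 1.34 to 4.61 CPM of Cdkn2a. Of mesenchymal progenitor-like cells 2.54% to 15.6% were cycling, with 7.8 to 21.1 CPM. Osteochondral progenitor-like cells went the other way, with 14.3% to 18.3% cycling and at most 6.71 CPM. The part of class in these mesenchymal differences was not tested.

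Gdf15 was lower in cycling cells of 2 lineages and Cdkn1a in cycling cells of 3, although Cdkn1a did not pass the test in endothelial cells. Gdf15 was called in myeloid cells (−0.83 ± 0.11; edgeR, adjusted p = 0.000962) and endothelial cells (−0.73 ± 0.14; adjusted p = 0.00116), the latter under 1.5-fold without the control 4 dpf library (−0.55). In mesenchymal cells it was higher in cycling cells in 2 of 4 libraries, RA 4 dpf (52.0 against 22.7 CPM) and control 7 dpf (28.8 against 26.4 CPM), and lower in the other 2. Cdkn1a was lower in cycling cells of all 3 lineages in 4 of 4 libraries, with log2 differences of −0.44 ± 0.12 in mesenchymal cells (edgeR, adjusted p = 0.0234) and −0.41 ± 0.09 in myeloid cells (adjusted p = 0.00685), both under 1.5-fold. In endothelial cells the difference was −0.21 ± 0.10 (edgeR, adjusted p = 0.137). With cycling cells defined by at least 5 UMIs the myeloid difference was −0.59 (edgeR, adjusted p = 0.000927) and passed that mark. Classes differed in their cycling share. Of osteoclast-like cells 46.6% to 67.4% were cycling, and they had 40.4 to 201 CPM of Gdf15 and 114 to 177 CPM of Cdkn1a. Of Arg1 macrophage-like cells 7.13% to 12.2% were cycling, with 224 to 594 and 272 to 305 CPM. Monocyte-like cells, 4.44% to 8.22% cycling, had only 11.5 to 48.7 CPM of Gdf15. The part of class in the differences between cycling and other cells was not tested. Trp53 was higher in cycling cells of all 3 lineages in 4 of 4 libraries, by 0.25 to 0.40, also under 1.5-fold.

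**Figure D5:**
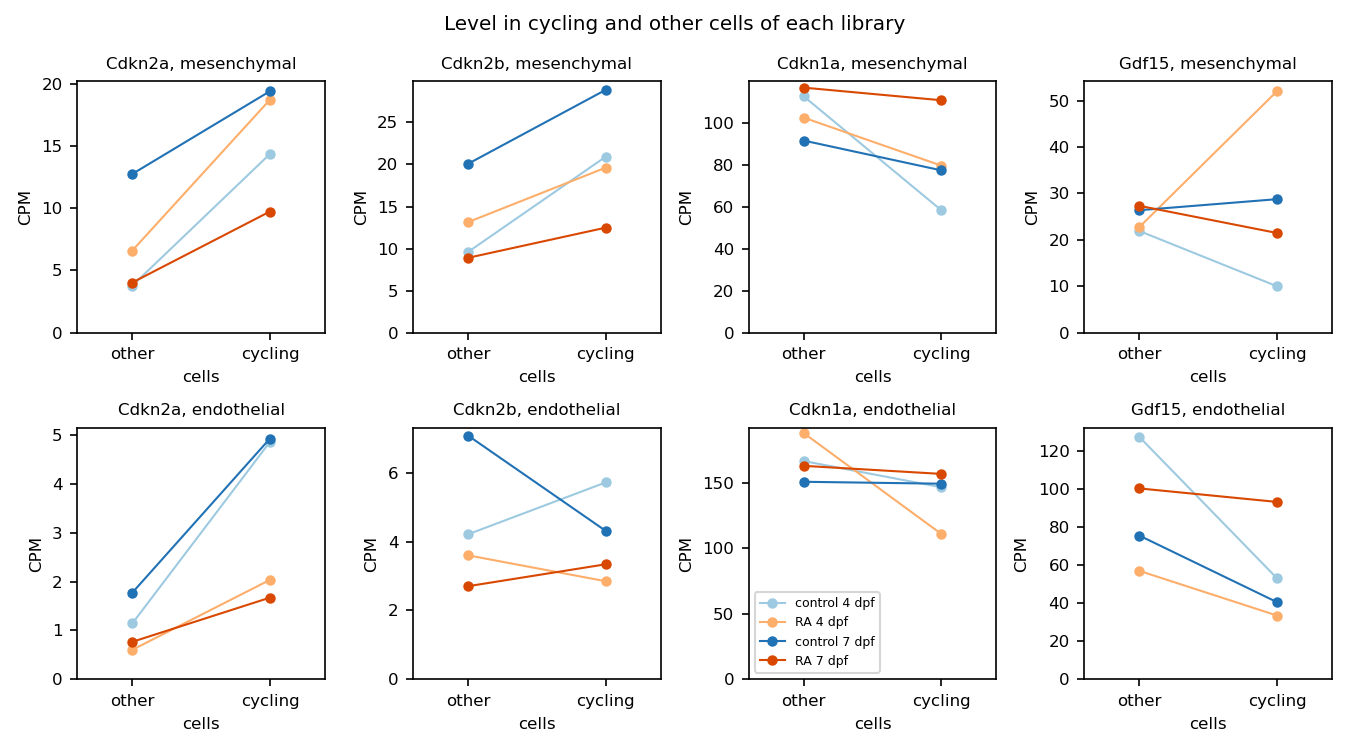
CPM of Cdkn2a, Cdkn2b, Cdkn1a and Gdf15 (columns, linear axes from 0) in other and cycling cells of the mesenchymal (top) and endothelial (bottom) lineages, with a line for each library. Cdkn2a is higher in cycling cells in 4 of 4 libraries in both lineages and Cdkn1a lower in 4 of 4, while Cdkn2b is higher in 4 of 4 in mesenchymal and in 2 of 4 in endothelial cells. The endothelial Cdkn2a points rest on 3 to 20 UMIs each.

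The other CDK inhibitors were read beside these genes. In mesenchymal cells at 7 dpf, 0 of 4 passed 1.5-fold between RA and control: the ratio was 1.14 for Cdkn1b, which encodes p27, 0.891 for Cdkn1c, 0.967 for Cdkn2c and 0.833 for Cdkn2d. In mesenchymal cells that were cycling by the UMI definition Cdkn2c and Cdkn2d, which encode p18Ink4c and p19Ink4d, were higher by 1.01 ± 0.17 and 0.98 ± 0.10 on the log2 scale (edgeR, adjusted p = 0.00272 and 0.000193), and Cdkn1c was lower, at −1.70 ± 0.11 (adjusted p = 1.70e-05).

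Other targets of p53, a list of 30, were read in the same way in mesenchymal cells. All 30 were measured at 7 dpf, and 1 was higher and 5 were lower in RA callus past 1.5-fold. That is near the 17.7% of all genes that passed. For the 28 measured at 4 dpf the counts were 3 and 0, near the all-gene share of 11.3%. These counts do not set the list apart from all genes. Its log2 ratio at 7 dpf had a median of −0.04, and so had that of all genes. Gadd45a, a stress gene that binds PCNA, was higher (24.2 CPM in control and 40.0 CPM in RA callus), and Aen, an exonuclease (15.9 and 9.97 CPM), Polk, a translesion polymerase (27.1 and 17.3 CPM), and Rps27l (452 and 297 CPM) were lower. Bax, a trigger of apoptosis, had a ratio of 0.714. Of 14 regulators of p53, 13 were measured and 0 passed; among those that reached 10 CPM in either library, Hipk2, a kinase of p53, had the highest ratio, 1.25, and Kat5 the lowest, 0.841. Of 10 genes of Rb-linked arrest 1 was higher and 1 lower, near the 17.7% of all genes; Hmga2, a chromatin protein of progenitors that is known to hold down the Cdkn2a locus in stem cells, was lower at 7 dpf (29.5 and 18.6 CPM; 0.631) after a ratio of 2.89 at 4 dpf.

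Genes of the senescence-associated secretory list had 8 of 19 measured genes higher and 1 lower past 1.5-fold in RA mesenchymal cells at 7 dpf, with a median log2 ratio of 0.40, where 17.7% of all genes passed in either direction and the median of all genes was −0.04. Mmp3, a matrix protease, was 66.8 CPM in control and 383 CPM in RA callus, Igfbp5 421 and 1157 CPM, the cytokine gene Il6 14.5 and 35.0 CPM, and the chemokine gene Ccl7 84.9 and 169 CPM, while Timp1, an inhibitor of matrix proteases, was 618 and 356 CPM. At 4 dpf the same list had 2 genes higher and 2 lower of 18, where 11.3% of all genes passed, and Igfbp5 was at a ratio of 0.344. In myeloid cells 1 gene of the list was higher and 6 lower of 19 at 4 dpf, and 6 higher and 1 lower at 7 dpf. The all-gene shares there were 8.40% and 12.1%. In endothelial cells 2 were higher and 4 lower of 16 at 4 dpf and 3 and 3 of 18 at 7 dpf. The all-gene shares were 7.06% and 11%. In muscle cells the counts were 4 and 1 of 12 at 4 dpf and 5 and 1 of 14 at 7 dpf. There 19.9% and 22% of all genes passed. Fibroblast-like cells numbered 1031 of 3083 control and 1714 of 3839 RA mesenchymal cells at 7 dpf, and the part of this in the mesenchymal ratios was not tested.

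The integrated stress response list had 2 genes higher and 2 lower of 12 in mesenchymal cells at 7 dpf, where 17.7% of all genes passed in either direction. Vldlr (14.9 and 38.2 CPM) and Atf3 (121 and 218 CPM) were higher, and Asns (19 and 8.95 CPM), which makes asparagine, was lower. Proliferation genes were lower in RA callus at 7 dpf in every lineage, 12 of 14 past 1.5-fold in mesenchymal and in myeloid cells and 13 of 14 in endothelial and in muscle cells. The all-gene shares in these lineages at 7 dpf were 11% to 22%. In mesenchymal cells Birc5, which encodes survivin, was 32.6 CPM in control and 12.3 CPM in RA callus, and Tpx2, Cdca8, Hmmr and Cenpf had ratios of 0.407 to 0.446. At 4 dpf 1 of 14 was higher and 0 lower in mesenchymal cells, 0 of 14 passed in myeloid and in endothelial cells, and 0 were higher and 5 lower in muscle cells, with a median log2 ratio of −0.35. Over all genes 7.06% to 19.9% passed in these lineages at 4 dpf.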

How the data were processed

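Libraries of fracture callus cells (Chromium 3′ kit, v3.1) were counted by the authors with Cell Ranger 7.0.1 against mm10 (GRCm38), and the deposited files hold raw UMI counts per gene and barcode. Of 34038 barcodes, 25479 cells with 4000 to 50000 UMIs, 2000 to 7000 genes and at most 8% mitochondrial UMIs were kept. Doublets were called with Scrublet and kept. Cells were clustered with Seurat 5.3.0 (CCA integration) without the 122 listed genes, and 20 of 21 clusters were named from markers. Counts were summed per library and class of at least 20 cells and scaled to CPM, and log2 ratios used a pseudocount of 1 CPM. Lineage and cycling contrasts used edgeR 4.0.16 (TMM, low-count filter) on the sums with the library as a block, with DESeq2 1.42.0 as an alternative; RA against control over both time points used edgeR with day as a covariate. All contrasts were adjusted by Benjamini-Hochberg, and the code was tested on simulated data. Intervals are exact (Poisson for levels, conditional binomial for ratios, Clopper-Pearson for shares). The genes, lists and tests were chosen with earlier results of these data known. Genes named from a list are every CDK inhibitor and the 5 with the largest absolute log2 ratio of RA to control in mesenchymal cells at 7 dpf among those that reached 10 CPM in either library. With 1 library per group, the p-values measure only the spread between the 4 libraries, which differ in condition and time. Up to 3 genes with the most similar pattern are named for each gene, and some of them are not reported here.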

Additional observations from a re-analysis of the deposited data

Results flagged for a closer look

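8 results had opposite directions of the RA to control ratio at 4 and 7 dpf, with the counting interval on opposite sides of 1. With 1 library per condition and time point the difference between the time points was not tested. In 2 of the 8 the opposite directions were lost with the classes weighted equally, in mesenchymal cells: the log2 ratio of Mdm2 at 7 dpf was then 0.03 instead of −0.11 and that of Cdkn1a at 4 dpf 0.26 instead of −0.10. In mesenchymal cells Cdkn2a was at 1.69 (1.35 to 2.12) at 4 dpf and 0.316 (0.282 to 0.355) at 7 dpf, and Cdkn2b at 1.3 (1.10 to 1.52) and 0.430 (0.396 to 0.467). The 4 dpf direction of these 2 genes was not seen in every measured class. The Cdkn2a interval held 1 in the only mesenchymal class measured, and Cdkn2b was lower in RA callus in 3 of 4 classes. Muscle cells, outside the mesenchymal lineage, were among the 3 and had the only interval below 1 (0.527, 0.296 to 0.891). With the classes weighted equally the mesenchymal log2 ratios at 4 dpf kept their direction, at 0.78 for Cdkn2a and 0.26 for Cdkn2b. In the mesenchymal lineage Mdm2 was at 1.24 (1.14 to 1.34) and 0.926 (0.890 to 0.964), and Cdkn1a the other way, at 0.931 (0.880 to 0.984) and 1.29 (1.26 to 1.33). In myeloid cells Cdkn1a was at 0.927 (0.904 to 0.951) and 1.05 (1.02 to 1.09), Mdm2 at 1.25 (1.22 to 1.28) and 0.906 (0.872 to 0.941), and Ccng1 at 1.13 (1.05 to 1.21) and 0.898 (0.810 to 0.996). In endothelial cells Gdf15 was at 0.469 (0.425 to 0.517) and 1.47 (1.36 to 1.59).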

How the results depend on the processing

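Of 43 RA to control ratios of the 8 genes in the 3 lineages, 7 passed 1.5-fold, and 3 did with a pseudocount of 10 CPM, under which genes of low level give smaller ratios by construction. The count was 5 to 10 under the other settings run: TMM scaling, at least 10 UMIs, no doublets, stricter cells, lineages set by marker UMIs, classes weighted equally, no cycling cells and a 2-fold mark. In 9 of the 43 the sign of the log2 ratio changed under at least 1 setting, and these 9 were under 1.5-fold as reported. Without cycling cells Gdf15 in myeloid cells at 4 dpf (−0.57 instead of −0.60) was no longer past 1.5-fold. The lineage contrasts gave 18 calls of 24 under every setting run. The cycling contrasts gave 5 calls of 22, and 3 to 5 when 1 library was left out, with 3 without control 4 dpf. DESeq2 gave 5 and no low-count filter 4; with at least 5 proliferation UMIs there were 5, of which Cdkn1a in myeloid cells was one and Cdkn2b in mesenchymal cells was not. The share of positive cells was lower in RA callus in 29 of 43 comparisons after thinning and in 27 without it. This was not counted over all genes, and the comparisons share the same libraries, so these counts do not show a drop particular to the 8 genes. No paired analysis was possible because each group is 1 library and the labels give no replicate numbers. Levels of Cdkn2a and Cdkn2b in myeloid cells rest on 4 to 15 UMIs per library and limit any ratio there.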
